A study of Mus musculus with 16 samples.

Results

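ATRX-dependent H3K9me3 nanodomains (HNDs) at gene promoters were examined in mouse embryonic stem cells (ESCs). An HND is a short stretch of chromatin carrying histone H3 trimethylated at lysine 9, and it was listed as ATRX-dependent where a peak was found in WT and was absent in *Atrx* KO cells. A promoter HND was an HND on chromosomes 1 to 19 that shared at least 1 base with the window reaching 1 kb to either side of a gene start, with starts taken along the strand from the GENCODE M1 gene records. This gave 329 promoter HNDs, 2.76% (2.49 to 3.08%) of the 11899 HNDs on chromosomes 1 to 19, and the whole list has 13113 HNDs. WT ESCs were of the line wt26, and the KO cells came from the clones KO1-40 and KO1-45, which were derived from ESCs by disruption of *Atrx*. Both were grown in serum and LIF. There were 2 WT and 2 *Atrx* KO libraries for each of H3K9me3, H3, IgG and input, which makes 16. By the methods each KO clone gave 1 of the 2 replicates, and the labels do not say which. The outcome is 1 pooled list of positions without heights or scores, so no error between replicates exists, no test was made, and the 95% intervals of shares (Wilson) hold the error of counting and nothing else. For a count of 0, the share it allows is given as 3 counts of the total. A difference of the KO clones from wt26 in DNA copies of a locus and a loss of H3K9me3 cannot be told apart in this list. The paper reports lower enrichment over input in the KO samples, which it takes as likely some loss of H3K9me3. A KO signal that was weaker but missed the peak call cannot be told apart from a full loss either.

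ATRX is a chromatin remodeler that acts with DAXX to deposit the histone variant H3.3 and is needed for H3K9me3 at many repeats. H3K9me3 is bound by HP1 and is a hallmark of silent chromatin. Most promoters rich in CpG lack it in ESCs, while genes reserved for germ cells are kept silent there by DNA methylation, H3K9 methylation and a variant Polycomb complex.

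The promoters that carry the main observations are shown on mm9, read along the gene from 170 bases before the start to the first 30 transcribed bases, with every CG dinucleotide in capitals. They belong to germ cell genes whose start base lay inside an HND, and *Tex12* and *Spata22* were picked after their values were seen. The stretch at *Dazl* is chr17:50432895-50433094 on the minus strand, with 22 CG. That at *Mov10l1* is chr15:88813169-88813368 on the plus strand, with 14 CG, and that at *Tuba3b* is chr6:145564107-145564306 on the plus strand, with 8 CG. *Tex12* is shown at chr9:50369344-50369543 on the minus strand, with 23 CG, and *Spata22* at chr11:73143073-73143272 on the plus strand, with 19 CG.
Dazl: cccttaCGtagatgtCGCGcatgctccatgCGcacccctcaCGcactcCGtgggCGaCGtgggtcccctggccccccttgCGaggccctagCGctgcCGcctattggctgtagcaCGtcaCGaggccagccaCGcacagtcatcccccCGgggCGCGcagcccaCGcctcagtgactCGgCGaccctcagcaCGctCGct
Mov10l1: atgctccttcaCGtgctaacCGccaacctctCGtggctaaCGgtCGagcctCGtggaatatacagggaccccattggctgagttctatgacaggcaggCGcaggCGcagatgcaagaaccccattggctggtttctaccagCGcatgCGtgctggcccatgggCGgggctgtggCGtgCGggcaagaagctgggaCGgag
Tuba3b: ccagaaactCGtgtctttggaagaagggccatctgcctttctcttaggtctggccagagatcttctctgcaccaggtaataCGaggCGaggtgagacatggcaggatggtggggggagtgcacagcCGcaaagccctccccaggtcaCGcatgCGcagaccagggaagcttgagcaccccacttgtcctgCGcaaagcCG
Tex12: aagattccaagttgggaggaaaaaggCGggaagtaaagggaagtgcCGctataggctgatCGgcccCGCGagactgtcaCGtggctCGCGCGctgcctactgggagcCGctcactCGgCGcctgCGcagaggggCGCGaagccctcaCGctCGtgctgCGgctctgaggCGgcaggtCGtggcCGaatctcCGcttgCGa
Spata22: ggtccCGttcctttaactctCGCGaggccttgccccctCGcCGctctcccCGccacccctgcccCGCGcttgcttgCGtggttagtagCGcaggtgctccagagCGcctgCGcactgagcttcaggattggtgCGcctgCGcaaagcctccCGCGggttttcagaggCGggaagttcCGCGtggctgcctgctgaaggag

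Starts of a gene family on chromosome 14 are shown in the same way, from 100 bases before the start to the first 30 transcribed bases, because nearly identical copies were found with and without an HND. *Gm3633* at chr14:43220695-43220824 and *Gm7980* at chr14:42486068-42486197, both on the minus strand, had an HND over the start. *Gm9611* at chr14:42876136-42876265, also on the minus strand, had none. Capitals mark the 3 bases that differ between *Gm3633* and *Gm7980*. *Gm9611* differs from *Gm3633* at 0 of the 130 bases shown.
Gm3633: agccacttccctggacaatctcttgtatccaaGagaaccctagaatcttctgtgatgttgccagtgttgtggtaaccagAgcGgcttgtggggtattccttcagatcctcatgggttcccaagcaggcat
Gm7980: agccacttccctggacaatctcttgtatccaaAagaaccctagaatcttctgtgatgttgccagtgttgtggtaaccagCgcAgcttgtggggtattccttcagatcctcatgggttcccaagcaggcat
Gm9611: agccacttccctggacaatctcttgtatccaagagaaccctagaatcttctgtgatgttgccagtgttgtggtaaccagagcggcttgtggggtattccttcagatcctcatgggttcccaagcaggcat

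Germ cell genes were the fixed list with the largest share of starts at an HND, among 19 lists chosen with earlier results of these data known. Of 32 germline genes with a record on chromosomes 1 to 19, 8 had a promoter HND, or 25% (95% Wilson interval 13.3 to 42.1%). Over all 34653 gene starts the share was 0.993%, and over the 21418 protein-coding starts it was 0.728%. For 3 of the 32 the HND lay over the start base itself, or 9.38% (3.24 to 24.2%), against 0.187% of protein-coding starts. Protein-coding genes outside the list had an HND at 148 of 21386 starts, or 0.692%.

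*Dazl*, which encodes an RNA-binding protein needed for germ cell development, had the widest of these HNDs, 1197 bp from -867 to 329 bp relative to the start (chr17:50432595-50433791). At *Mov10l1*, whose product is an RNA helicase of the piRNA pathway, a 550-bp HND ran from -390 to 159 bp (chr15:88812949-88813498). *Tuba3b*, a testis alpha-tubulin gene, had a 400-bp HND from -291 to 108 bp (chr6:145563986-145564385). These HNDs took in the start on both sides, and every 50-base word in them occurred once in mm9.

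The other genes of the list with an HND had it beside the start. *Ddx4*, the germ cell marker VASA, had one upstream, from -803 to -149 bp. That of *Rnf17*, which encodes a Tudor domain protein of germ cells, ran from -894 to -412 bp. *Sycp1*, a component of the synaptonemal complex that joins meiotic chromosomes, had one downstream, from 673 to 1003 bp. The HND of *Tuba3a*, the paralog of *Tuba3b*, ran from 465 to 1266 bp, and that of *Rpl10l*, a retrogene for a ribosomal protein used in meiosis, from 535 to 1219 bp. In the HND of *Rpl10l*, which was the exception among these 8 genes in uniqueness, 67.4% of 50-base words occurred once. Over the 8 HNDs together the share was 95.6%. The other 24 genes of the list had no promoter HND. They were *Asz1*, *Brdt*, *Ctcfl*, *Dmc1*, *Dpep3*, *Figla*, *Fkbp6*, *Hormad1*, *Mael*, *Nobox*, *Piwil2* and *Slc25a31*. Also without one were *Smc1b*, *Spo11*, *Stk31*, *Stra8*, *Syce1*, *Sycp2*, *Sycp3*, *Tdrd1*, *Tex101*, *Tex14*, *Tex15* and *Zp3*.

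Outside the list, *Tex12* and *Spata22*, picked after their values were seen, also had their start inside an HND. Germ cell genes outside the list that had no HND were not counted. *Tex12* encodes a central element protein of the synaptonemal complex, and its 594-bp HND ran from -348 to 245 bp (chr9:50369128-50369721). *Spata22*, needed for meiotic recombination, had a 995-bp HND from -356 to 638 bp (chr11:73142887-73143881). Further genes of germ cells with an HND in the window, picked after their values were seen, were *Adad1* (from 807 to 1322 bp), *Gpat2* (from -1206 to -704 bp), *Sox30* (from -431 to -173 bp) and *Actl7a* (from 668 to 1200 bp). *Adad1* encodes a testis RNA-binding protein, *Gpat2* a mitochondrial protein of the piRNA pathway, *Sox30* a transcription factor of spermatids and *Actl7a* an actin-like protein of the sperm head. Over all 32 genes of the list the nearest HND was a median of 39.9 kb away (10.4 to 128 kb), an interval that includes the 89.97 kb of all protein-coding starts.

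**Figure D1:**
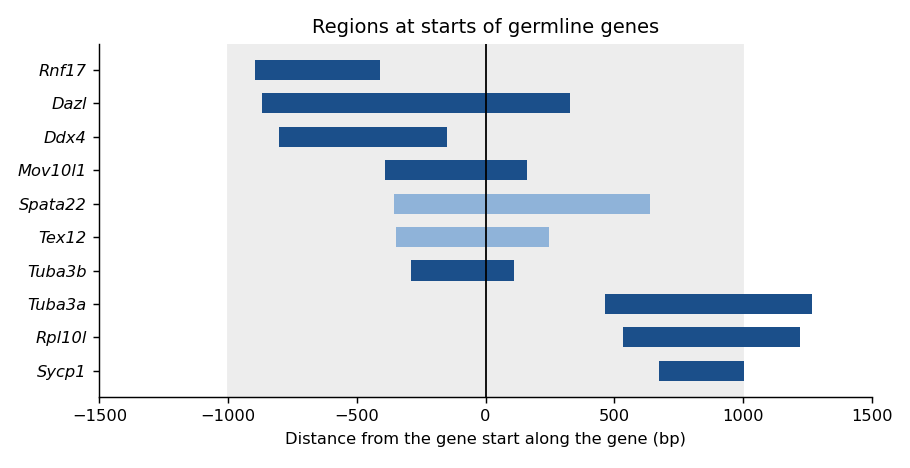
Positions of HNDs relative to the start of germ cell genes, with distance along the gene in bp on the x axis and 1 bar per HND. Dark bars are genes of the fixed list, and light bars are *Tex12* and *Spata22*, picked after their values were seen. The grey band is the window of 1 kb on either side. HNDs of *Dazl*, *Mov10l1*, *Tuba3b*, *Tex12* and *Spata22* span the start.

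The CpG content of these promoters differed from that of most promoters with an HND. CpG observed over expected, the number of CG dinucleotides relative to that given by the C and G content, was computed over 1 kb centred on the start. It had a median of 0.662 at the 8 germline starts with an HND (0.470 to 0.747). This interval includes the medians of the 24 germline starts without an HND, 0.602, and of all protein-coding starts, 0.559. Over the 156 protein-coding starts with a promoter HND the median was 0.296 (95% interval of the median 0.259 to 0.381). At the 40 starts with an HND over the start base it was 0.260 (0.147 to 0.339). Without the chromosome 14 family described below, the medians were 0.339 (0.281 to 0.456) for 141 starts and 0.328 (0.243 to 0.470) for 31 covered starts.

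Among protein-coding starts grouped by this ratio, the share with an HND was 1.09% below 0.2 (51 of 4681 starts) and 1.11% from 0.2 to 0.4. It was 0.766% from 0.4 to 0.6, 0.461% from 0.6 to 0.8 and 0.331% at 0.8 or more (15 of 4528 starts). All starts of the chromosome 14 family with an HND were in the lowest class, which had 0.775% (0.561 to 1.07%) without the family. The family also made up 9 of the 18 covered starts of that class. In the class of 0.8 or more, 0 of 4528 start bases lay in an HND, which allows a share of up to 0.0663% (0.0848% by the Wilson interval). Of the 40 covered starts, 6 or 15% (7.06 to 29.1%) had a ratio of at least 0.6, against 46.4% of all protein-coding starts. These were the germ cell genes *Dazl* (0.740), *Tex12* (0.667) and *Mov10l1* (0.604) and the predicted genes *Gm10634* (0.705), *Gm2382* (0.691) and *Gm6576* (0.666), where *Gm10634* and *Gm2382* overlap at their starts and share 1 HND.

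**Figure D2:**
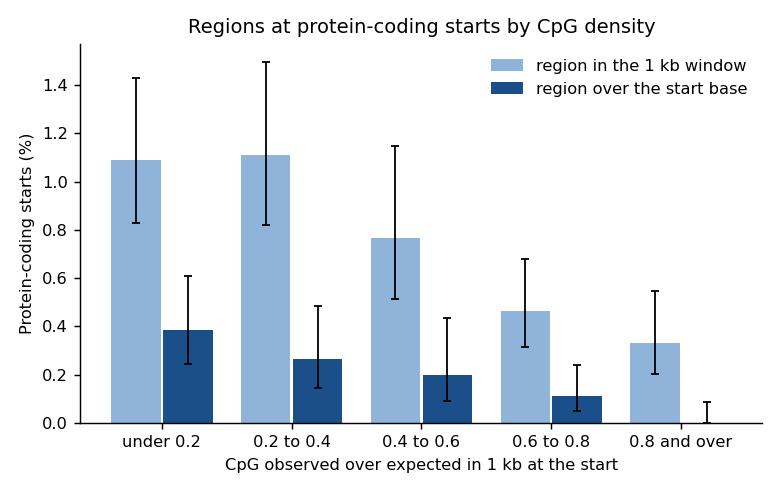
Share of protein-coding starts with an HND in % on the y axis, by CpG observed over expected in 1 kb at the start on the x axis. Light bars count an HND anywhere in the window of 1 kb on either side, dark bars an HND over the start base, and error bars are 95% Wilson intervals. The light bars go from 1.09% in the lowest class (0.775% without the chromosome 14 family) to 0.331% in the highest.

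Short motifs were searched on both strands in 300 bases centred on the start, a choice made after the genes were seen. CACGTG, the core sequence recognised by several basic helix-loop-helix proteins including MGA and MAX, occurred at 12 of 32 germline starts, or 37.5% (22.9 to 54.7%), and at 7.30% of all protein-coding starts. It was present at *Ddx4*, *Rnf17* and *Sycp1* among the 8 germline starts with an HND, and at *Tex12*. For the 8 starts this is 37.5% (13.7 to 69.4%), the same share as in the whole list. The HNDs of *Rnf17* and *Sycp1* lay outside the 300 bases searched, and that of *Ddx4* ended at -149 bp, at their edge. At these 3 genes the match was therefore not wholly inside the HND. Of the 40 covered protein-coding starts CACGTG was in 1, that of *Tex12*. The stretch shown above for *Mov10l1* also holds CACGTG, but upstream of the 300 bases searched. GGCGGG, a GC box, occurred at 19 of the germline starts (59.4%, 42.3 to 74.5%), at 45.7% of all protein-coding starts, which lies inside this interval, and at 8 of the 40 covered starts (20.0%). TATAAA occurred at 0 of the 32 germline starts, which allows up to 9.38% (10.7% by the Wilson interval), at 10.9% of all protein-coding starts and at 4 of the covered starts (10.0%). These matches describe the letters in the window and were not linked to binding.

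TTAGGG, the telomere repeat unit, was in the central 300 bases of 28 promoter HNDs, or 8.51% (5.95 to 12.03%), and of 12.1% of the other HNDs on chromosomes 1 to 19, just above this interval. GGCGGG was in 6.38% (4.21 to 9.56%) of promoter HNDs and in 3.87% of the others. The G-quadruplex pattern, 4 runs of at least 3 G with loops of 1 to 7 bases, was in 11 promoter HNDs, or 3.34% (1.88 to 5.89%), and in 3.50% of the others. Around covered protein-coding starts TTAGGG was found at 2 of 40 (5%, 1.38 to 16.5%) and the G-quadruplex pattern at 4 of 40 (10.0%, 3.96 to 23.1%). Over all protein-coding starts the shares were 8.95% and 21.8%, both inside these intervals. One of the latter, *AF085738*, is shown at chr2:174172246-174172328, read on the minus strand along the gene, with the pattern, which lies on the opposite strand, in capitals.
AF085738: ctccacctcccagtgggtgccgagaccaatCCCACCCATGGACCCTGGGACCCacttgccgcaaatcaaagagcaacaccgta

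The chromosome 14 family made up the densest group of promoter HNDs. Its starts were defined after the values were seen, as those whose surrounding 300 bases differed by at most 60 edits (substituted, inserted or deleted bases) from *Gm3633*, the gene of the family with the widest HND over its start. This gave 38 protein-coding genes, all on chromosome 14, with at most 49 edits, while the closest start outside had 83. Of the 38 starts, 15 had a promoter HND, or 39.5% (25.6 to 55.3%), and 9 had it over the start base. They held 17 promoter HNDs, since *Gm16506* and *Gm8180* had 2 each. Between 40 and 45 Mb of chromosome 14 lay 20 promoter HNDs, and the next densest stretch of 5 Mb on any autosome held 5.

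Most HNDs of the family lay over the start or downstream of it, and the rule for members itself asks for an HND within 1 kb of a start. In the 9 copies with a covered start, the first base of the HND was at a median of -207 bp, from -497 bp in *Gm17079* to -24 bp in *Gm8229*. In a further 6 copies the HND began downstream of the start, at 78 to 579 bp. The last base of these 15 HNDs was at a median of 1381 bp, from 167 to 2025 bp. The other HNDs of *Gm16506* (from -831 to -676 bp) and *Gm8180* (from -994 to -752 bp) lay upstream. *Gm3633* had a 2227-bp HND from -201 to 2025 bp, *1700091H14Rik* one of 1830 bp from -215 to 1614 bp, and *Gm8024* one of 1371 bp from -207 to 1163 bp.

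Around the start, some copies with and without an HND were hardly different in sequence. The comparison covered 300 bases at the start and not the rest of the HNDs. In the 28 copies within 17 edits of *Gm3633*, 12 had an HND and 16 had none. *Gm9611* differed from *Gm3633* by 2 edits in 300 bases and *Gm7980* by 4. Of the 50-base words in the 17 HNDs at these starts, 23.3% occurred once in mm9, from 2.24% in *Gm7980* to 64.4% in *Gm16506*, against 79.1% in the other promoter HNDs. The methods state that only uniquely mapped reads entered, while the read counts in the Reporting Summary include reads placed at a sampled position. Which of these made up the HNDs at such copies was not tested. Without the family, 0.659% of protein-coding starts had an HND (141 of 21380) and 0.145% had it over the start base.

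**Figure D3:**
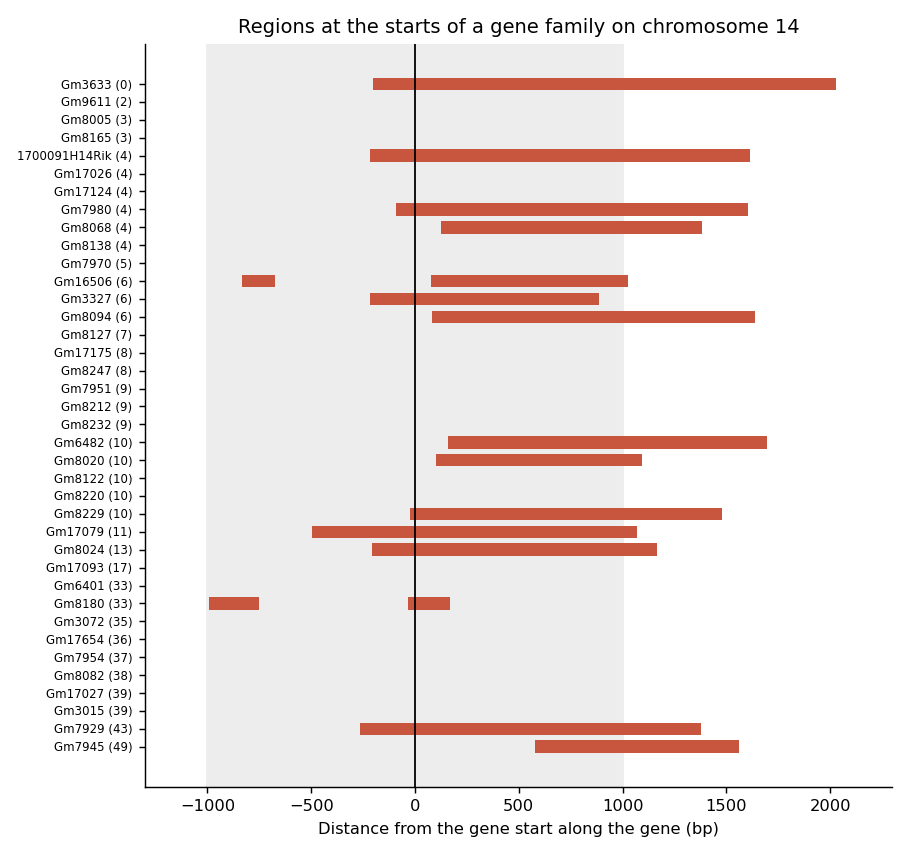
HNDs at the 38 starts of the chromosome 14 family, ordered by the number of edits (in brackets) from *Gm3633*, with distance along the gene in bp on the x axis and the window of 1 kb on either side in grey. Bars are HNDs, and genes without a bar have none. HNDs at 15 starts lie mostly between -500 and 2000 bp, next to copies of similar sequence with none.

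Chromosome 14 as a whole had the most promoter HNDs, 44 of its 746 HNDs or 5.90% (4.42 to 7.83%), and 27 of them, or 3.70% of the HNDs left, were not at family starts. Chromosome 11 followed by count, with 34 (4.01%), and chromosome 6 by share, with 25 of 620 (4.03%). The lowest share was on chromosome 18, with 2 of 393 (0.509%). Also on chromosome 14, *Phf11* (from -53 to 383 bp) and the predicted genes *Gm6904* (from -365 to 322 bp) and *Gm4902* (from -326 to 105 bp) had covered starts near each other.

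The other covered starts belonged to genes of many kinds, and no count by function was made for them. *Xcr1*, a chemokine receptor gene of dendritic cells, had the widest HND over a protein-coding start, 3016 bp from -1388 to 1627 bp (chr9:123769619-123772634). The widest promoter HND of all, 5054 bp at chr9:123761559-123766612, was its neighbour, upstream of *Fyco1*, which encodes an adaptor of autophagosome transport. *Defb4*, a beta-defensin gene, had a 1882-bp HND from -1765 to 116 bp, and *Defb23* one of 494 bp from -461 to 32 bp. *Ang2*, a member of the angiogenin ribonuclease family, had one of 1866 bp from -1497 to 368 bp. *Csta*, which encodes a protease inhibitor of the skin barrier, had one of 959 bp from -63 to 895 bp. *Serpina3a*, a serine protease inhibitor gene, was covered from -188 to 156 bp, and its relative *Serpina3c* had an HND upstream from -630 to -460 bp, which made 2 of 60 serpin genes (3.33%, 0.919 to 11.4%), an interval that includes the 0.993% of all starts.

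*Abca16*, an ABC transporter gene, had a 1909-bp HND from -49 to 1859 bp. *Abca12*, which encodes the lipid transporter of the skin barrier, had one of 442 bp from -102 to 339 bp. *Gal3st2*, a galactose sulfotransferase gene, had one of 1291 bp from -970 to 320 bp. A pair of genes on opposite strands shared an HND over both starts at 2 places. On chromosome 1 these were *4930521A18Rik* and *4931428L18Rik*, which point away from each other, with 1292 bp. On chromosome 9 they were *Gm10634* and *Gm2382*, which overlap at their starts, with 1772 bp. Among the 20 widest HNDs over protein-coding starts were further those of *Gm4666* (1360 bp), *AF085738* (1335 bp) and *Gm11808* (1253 bp) and the chromosome 14 genes *Gm7929* (1640 bp), *Gm17079* (1567 bp) and *Gm8229* (1503 bp).

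After *Fyco1*, the widest promoter HNDs were at the processed transcripts *AI854703* (4163 bp, downstream of the start) and *Gm12018* (3544 bp, upstream), at *1700029J07Rik* (3517 bp, downstream) and at the pseudogene *Gm12058* (3422 bp, over the start). Genes with 2 HNDs in the window numbered 6 and none had more. Besides *Gm16506* and *Gm8180* these were *Gm10093*, *Gm16028*, the pseudogene *Rpl36a-ps3* and a 7SK record on chromosome 15.

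By gene type, the 329 promoter HNDs formed 350 pairs with 344 gene records. The starts of 156 protein-coding genes were involved, or 0.728% (0.623 to 0.851%), and 174 HNDs touched no protein-coding start. Pseudogenes had an HND at 80 of 4055 starts, or 1.97% (1.59 to 2.45%). For snRNA genes the share was 2.25% (1.58 to 3.20%, 30 of 1331), and for miRNA genes 1.84% (1.27 to 2.66%, 27 of 1468). Processed transcripts had 1.07% (26 of 2437), miscellaneous small RNAs 1.97% (9 of 458), lincRNAs 0.568% (7 of 1232) and snoRNAs 0.412% (6 of 1458). There were further 2 immunoglobulin V genes and 1 rRNA record. The counting intervals of pseudogenes, snRNAs, miRNAs and miscellaneous small RNAs (1.04 to 3.69%) lay above the 0.993% of all starts, and those of protein-coding and snoRNA genes (up to 0.895%) lay below it. For miRNAs this rests on 8 starts that share 2 HNDs of chromosome 12, and without these starts the share was 1.30% (0.835 to 2.02%, 19 of 1460), an interval that includes 0.993%.

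**Figure D4:**
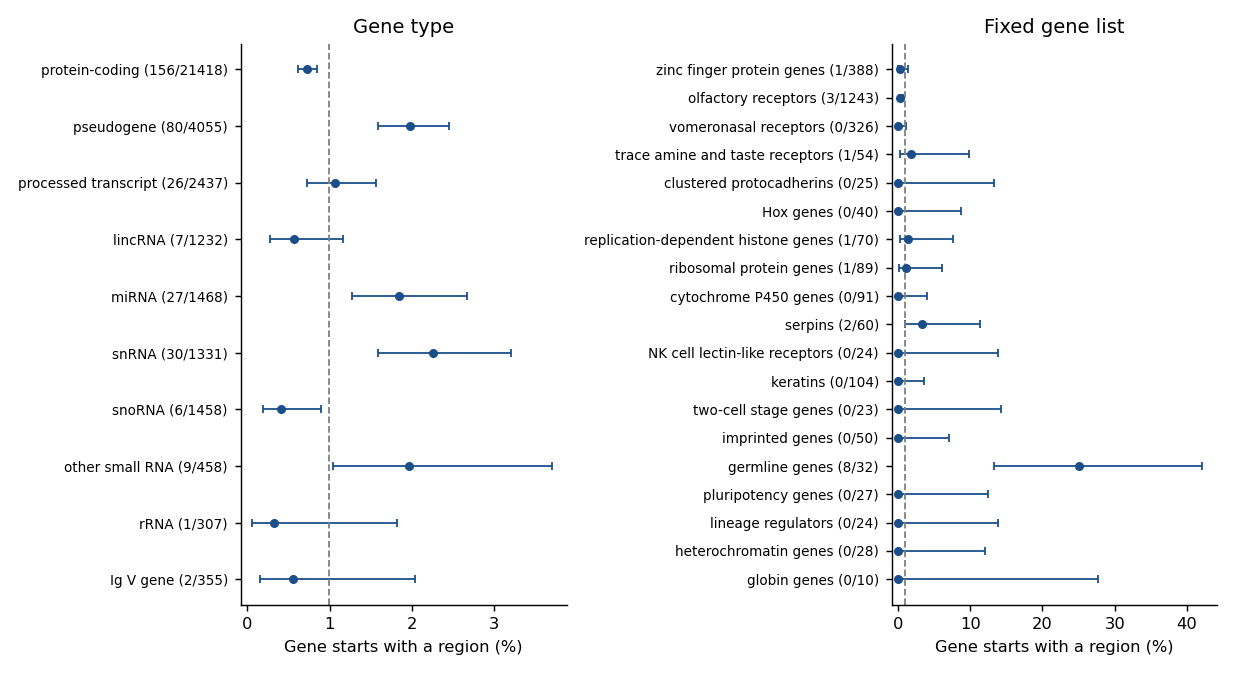
Share of gene starts with a promoter HND in % on the x axis, for gene types on the left and fixed gene lists on the right, with the number of starts with an HND and of all starts in brackets. Points are shares, error bars are 95% Wilson intervals, and the dashed line is the share over all gene starts, 0.993%. Germline genes stand at 25%, and the lists were chosen with earlier results of these data known.

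Of the 73 small RNA starts with an HND, 27 were of spliceosomal snRNAs, 27 of miRNAs, 6 of 7SK and 6 of snoRNAs. U6, the snRNA of the spliceosome with many genomic copies, had an HND at 20 of 871 starts, or 2.30% (1.49 to 3.52%). Of these 20 HNDs, 1 lay over the start, 3 upstream and 16 downstream. U6 records had a median length of 107 bp, and 14 of the HNDs began beyond the 3' end, at a median of 235 bp from it. For all snRNA records, 20 of the 30 HNDs were downstream. For 7SK, an RNA that regulates transcription elongation, 6 of 309 starts had an HND, or 1.94% (0.893 to 4.17%), an interval that includes the 0.993% of all starts. They formed 7 pairs, since a record on chromosome 15 had 2 HNDs, and 3 of these lay over the start. HNDs nearest to snRNA starts had 60.6% of their 50-base words once in mm9.

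Among miRNA records the HND was over the start in 12 of 27 pairs. Such a start is that of the hairpin record, not of the primary transcript. On chromosome 12, 2 HNDs lay in the miRNA cluster of the imprinted *Dlk1*-*Dio3* domain, whose miRNAs are expressed from the maternal chromosome. The HND at chr12:110948676-110949806 touched 5 record windows, among them those of *Mir411*, *Mir1197* and *Mir323*, the most of any promoter HND. That at chr12:110955248-110956582 covered the starts of *Mir666* (from -47 to 1287 bp) and *Mir543* (from -218 to 1116 bp) and lay upstream of *Mir495* (from -1709 to -375 bp). The mature miRNAs of the covered hairpins are shown from RefSeq (GRCm38.p6), with the seed, bases 2 to 8, in capitals, and their seeds all differ. By symbol, 7 of 26 miRNA names with a promoter HND were found there.
mmu-miR-666-5p: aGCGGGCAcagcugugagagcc
mmu-miR-666-3p: gGCUGCAGcgugaucgccugcu
mmu-miR-543-5p: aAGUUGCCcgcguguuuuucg
mmu-miR-543-3p: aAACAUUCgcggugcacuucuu

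Among the large gene families, olfactory receptors had 3 in 1243 starts, or 0.241% (0.0821 to 0.707%), at *Olfr332*, *Olfr407-ps1* and *Olfr522*, all downstream of the start. This interval lies below the 0.993% of all starts, but includes the 0.659% of protein-coding starts without the chromosome 14 family. Zinc finger protein genes, many of whose products recruit H3K9 methylation to repeats, had 1 in 388, upstream of *Zfp950* from -704 to -420 bp (0.258%, 0.0455 to 1.45%), an interval that includes both shares. Vomeronasal receptors had 0 in 326, which allows up to 0.920%, and the Wilson interval, up to 1.16%, includes the background. That list left out pseudogenes named with -ps before the number, while the olfactory list held *Olfr407-ps1*. Of 109 such vomeronasal pseudogenes, counted after the values were seen, 1 had an HND, *Vmn2r-ps80* (from -1289 to -959 bp). Taste and trace amine receptors had 1 of 54 (1.85%, 0.328 to 9.77%, *Tas2r134*), replication-dependent histones 1 of 70 (1.43%, 0.253 to 7.66%, *Hist1h2al*) and ribosomal proteins 1 of 89 (1.12%, 0.199 to 6.09%, the *Rpl10l* named above). These lists are too short to be set apart from the background. Cytochrome P450 genes had 0 of 91, keratins 0 of 104, clustered protocadherins 0 of 25, NK cell lectin-like receptors 0 of 24 and globins 0 of 10. These counts allow up to 3.30%, 2.88%, 12%, 12.5% and 30%, all above the background, so these lists are too short to be set apart from it.

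No promoter HND was found at 27 pluripotency genes, 24 lineage regulators, 40 *Hox* genes, 28 heterochromatin genes, 50 imprinted genes or 23 genes of the two-cell stage. The imprinted list holds no miRNA records, so the HNDs at miRNAs of the *Dlk1*-*Dio3* domain are not counted in it. A count of 0 allows up to 11.1% of pluripotency genes, 12.5% of lineage regulators, 7.5% of *Hox* genes, 10.7% of heterochromatin genes, 6.00% of imprinted genes and 13.04% of two-cell stage genes, so these lists are likewise too short to be set apart. The nearest HND to a pluripotency gene start was 1.15 kb from *Nanog*, just outside the window. For lineage regulators the nearest was 34.9 kb from *Myod1*, for *Hox* genes 16.8 kb from *Hoxb13*, and for heterochromatin genes 6.40 kb from *H3f3b*.

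Relative to the nearest start, 87 promoter HNDs or 26.4% (22.0 to 31.5%) covered it, 122 or 37.1% (32.0 to 42.4%) were upstream and 120 or 36.5% (31.5 to 41.8%) downstream. The sides were thus equal within counting error. HNDs that did not cover a start were a median of 531.5 bp from it, 524.5 bp upstream and 531.5 bp downstream. At the edge of the window, *Gcnt3* at 995 bp and *Gm10475* at 993 bp were the last inside, and *Gm11417* and a 7SK record, both at 1002 bp, were the first outside. An exon of the gene at the start was touched by 147 promoter HNDs or 44.7%. Of the 152 HNDs nearest to a protein-coding start, 56 or 36.8% (29.6 to 44.7%) reached its coding sequence.

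The surroundings of gene starts were then compared by the share of base pairs inside any HND. For all protein-coding starts this was 0.182% within 1 kb of the start and 0.285% at 5 to 10 kb on either side. Without the chromosome 14 family, which was defined after the values were seen, it was 0.147% and 0.284%. Around pseudogenes it was 0.544% within 1 kb and 0.405% farther away, and around small RNA records 0.355% and 0.273%. Long non-coding genes had 0.234% and 0.295%. HNDs were therefore sparser at protein-coding starts than in their own surroundings, and not at pseudogenes or small RNAs, as a description without a test. Over all sequenced bases of chromosomes 1 to 19, HNDs covered 0.295%.

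**Figure D5:**
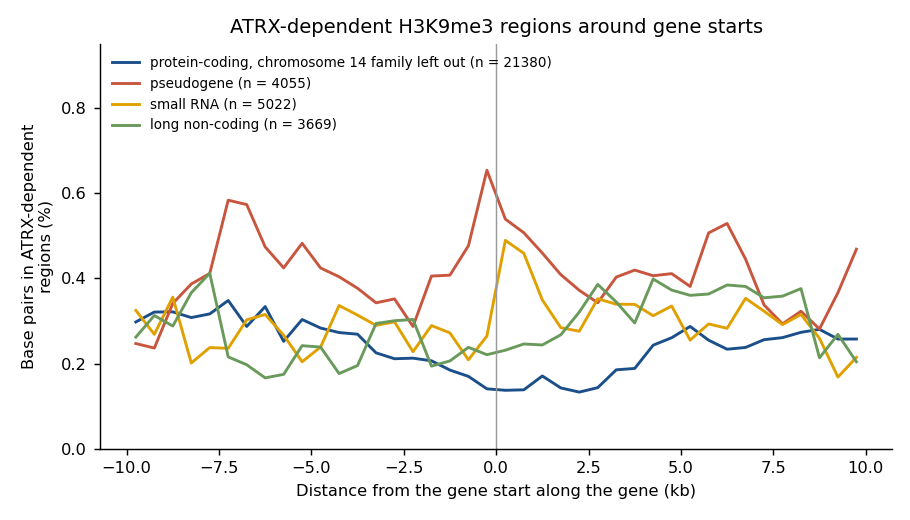
Share of base pairs inside HNDs in % on the y axis, in bins of 500 bp from 10 kb upstream to 10 kb downstream of gene starts on the x axis, for gene types as coloured lines. The line of protein-coding genes without the chromosome 14 family is low near the start, at 0.139% within 500 bp on either side, with its lowest bin, 0.133%, beginning 2 kb downstream. Within 500 bp pseudogenes had 0.596% and small RNAs 0.377%.

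Promoter HNDs were wider than the rest, with a median of 563 bp (95% interval of the median 494 to 642 bp) against 413 bp for the other 11570 HNDs of chromosomes 1 to 19. A wide HND reaches a window more easily, so the rule itself selects for width. The 252 HNDs with their centre within 1 kb of a start had a median of 494 bp. Those over a start were widest, with a median of 981 bp, against 411.5 bp upstream and 608.5 bp downstream. Widths ran from 50 to 5054 bp. A width of 2 kb was reached by 17 promoter HNDs, or 5.17% (3.25 to 8.12%), and by 2.70% of the others. Another HND lay within 10 kb of 88 promoter HNDs, or 26.7% (22.3 to 31.8%), and of 20.0% of the others.

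In sequence, promoter HNDs had a slightly higher G+C and CpG content than the rest. The median G+C content was 47.0% (46.4 to 47.6%) against 45.7%, and the median CpG observed over expected was 0.226 (0.203 to 0.240) against 0.186. Of their 50-base words 74.6% occurred once in mm9, the same share as in the other HNDs. A promoter HND without any such word was found in 22 cases, or 6.69% (4.46 to 9.92%), against 9.26% of the others. At least 90% of words occurred once in 168 promoter HNDs, or 51.1% (45.7 to 56.4%), an interval that includes the 49.6% of the others. HNDs nearest to processed transcripts had the largest share of words occurring once among the types with at least 20 HNDs, 90.4%, and those nearest to miRNA records the smallest, 58.2%.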

How the data were processed

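H3K9me3 ChIP-seq was done in WT ESCs and *Atrx* KO cells, with H3, IgG and input libraries, 16 in all. The authors mapped 50-base reads to mm9 (Bowtie2 with uniquely mapped reads by the methods, while the Reporting Summary also counts reads placed at a sampled position), called broad peaks with MACS2 for WT and KO separately against input and kept peaks present in WT and absent in KO. The sample records also list bedtools. Versions, the overlap rule and how replicates were joined are not given in the sources used here. The 3 columns of the deposited list hold a chromosome name and the first and last position of an HND in bp, other values such as counts or scores are not part of it, and 0 columns hold values of single libraries. The depth behind single HNDs is therefore unknown.

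Positions were counted from 1, and distances from the start base as 0. Gene types, names and levels came from GENCODE M1 on mm9. A list gene counted once per gene record. G+C and CpG observed over expected were computed from mm9, and copies of words were counted as exact matches, through hashed words, on both strands over the whole mm9 sequence. Overlapping words are not independent. Edits were global alignment distances. Intervals of medians are binomial order-statistic intervals. The overlap and word searches were checked on simulated data. The members and the 19 gene lists were chosen with earlier results of these data known. Named were protein-coding genes whose start lay in an HND (the 20 with the widest HND), the 5 widest promoter HNDs, the genes with most HNDs, and the members of each list with an HND (the 3 nearest to their start where there were more than 5). Other names and all comparisons of the chromosome 14 family were picked after their values were seen, as were the shares of 7SK, spliceosomal snRNAs, vomeronasal pseudogenes and miRNAs without the chromosome 12 cluster. Alternatives were other windows, overlap rules, annotations, widths, joining, chromosomes, flanks and word lengths. L1, LTR and other repeat annotation was not used here. Code was run in Python 3.11.15, numpy 2.4.6, pandas 2.3.3, scipy 1.17.1, numba 0.67.0, edlib 1.3.9.post1 and matplotlib 3.10.9.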

Additional observations from a re-analysis of the deposited data

Results flagged for a closer look

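Chromosomes X and Y lie outside the members and held HNDs at gene starts by the same window. On chromosome Y this was the case for 5 of 21 gene starts, or 23.8% (95% Wilson interval 10.6 to 45.1%), above the share of all autosomal starts, 0.993%. They belonged to *Zfy1*, *Ube1y1*, *Eif2s3y*, *Usp9y* and *Zfy2*, and in each the HND lay over the start base, for example from -144 to 955 bp at *Zfy1*. Of the HNDs on chromosome Y, 5 of 174 or 2.87% (1.23 to 6.55%) were at a gene start, an interval that includes the 2.76% of chromosomes 1 to 19. Of the 50-base words in these 5 HNDs 51.1% occurred once in mm9, against 74.6% in the autosomal promoter HNDs. On chromosome X it was the case for 0.885% of gene starts (23 of 2599, 0.590 to 1.32%), with 7 of them over the start base. Whether the KO clones had kept chromosome Y was not tested, since the list holds no signal of KO or input libraries.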

How the results depend on the processing

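Of 91 values under alternatives for 10 results, 59 stayed within the 95% interval, or within 1.5 times for counts, and 32 moved. Windows of 500 bp gave 203 promoter HNDs, 1.71% of HNDs, 42.9% covering a start, 29.1% upstream, a median width of 651 bp, and 0.615% of all and 0.406% of protein-coding starts. Windows of 2 kb gave 548 HNDs, 4.61%, 15.9% covering, 42.7% upstream, and 1.68% and 1.25% of starts. Asking for the centre, or for at least 50% of the HND, to lie in the window gave 2.12% of HNDs, 33.7% covering, and 0.753% and 0.551% of starts. Protein-coding genes alone gave 155 HNDs, 1.30% of HNDs and 0.728% of starts, all transcript starts gave 3.51% of HNDs, and manually checked records gave 180 HNDs, 1.51% and a median CpG observed over expected of 0.197. Without HNDs under 200 bp the median width was 654 bp and 0.871% of starts had an HND. The share of words occurring once was 69.0% with 36-base words and 74.9% with 150 bp added on each side. Larger windows, more starts and shorter words shift these values by construction, and other causes were not tested. Joining HNDs within 1 kb and adding chromosomes X and Y moved none of the 9 results computed under each. No paired analysis was possible because libraries are pooled into 1 list of positions, and for the same reason no replicate could be left out. Statements are limited to positions, since heights and depth are unknown.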

Other observations

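On chromosome X the protein-coding genes with an HND in the window were *Cybb*, *1700013H16Rik*, *Xlr*, *3830403N18Rik*, *Kir3dl2* and *Tex13*. *Cybb* encodes the catalytic subunit of the phagocyte NADPH oxidase, and its HND ran from 388 to 916 bp. *1700013H16Rik* (from -7 to 1188 bp) and *Xlr* (from -279 to -36 bp) are neighbours, and *Xlr* belongs to a family of lymphocyte and germ cell genes. *Tex13*, a gene expressed in the testis, had one upstream from -1002 to -366 bp. Of the 5 genes on chromosome Y with an HND over their start, *Eif2s3y* encodes a translation initiation factor needed for spermatogonia, and it had the highest CpG observed over expected in 1 kb at the start, 0.766. The other 4 had 0.592 (*Zfy1*), 0.455 (*Ube1y1*), 0.567 (*Usp9y*) and 0.220 (*Zfy2*).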
